A study of Mus musculus with 9 samples.

Results

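The 8 genes described here were Gckr, Slc2a2, Khk, Pfkfb1, Pfkl, Tpi1, Gapdh and Pklr, which encode a regulator of glucose phosphorylation, a sugar carrier, an enzyme of fructose entry and enzymes of glycolysis. They were chosen by symbol from the 27179 genes of the deposited table, and all 8 had a row. Liver was taken from C57BL/6J mice on normal chow, labelled wild type, that were injected at 17 months of age and harvested 3 weeks later. Every mouse, controls included, received 3e11 vector genomes of AAV8 carrying saCas9 under TBG, a promoter active in hepatocytes, and a U6-driven guide RNA. The guide was directed at Rosa26, the control target named in the labels, in 4 mice (sgRosa26), and at Ccnd1, the gene of cyclin D1, in 5 mice (sgCcnd1). Poly(A) RNA of a flash-frozen piece of the m-lobe was sequenced in bulk, so non-hepatocyte RNA was measured too, and fewer cells of a type cannot be told apart from less RNA per cell. The letters A to D stand for the sgRosa26 libraries and the letters E to I for those of sgCcnd1, in column order, since a column names its group but no replicate.

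Glucose and fructose enter hepatocytes from portal blood through the carrier GLUT2. Glucokinase then traps glucose by phosphorylation and is held inactive in the nucleus by its regulatory protein, while ketohexokinase phosphorylates fructose and so bypasses phosphofructokinase, the main control point of glycolysis. The liver form of pyruvate kinase closes the pathway and is a classical target of the transcription factor ChREBP, which responds to sugar. Other enzymes run the pathway backwards to make glucose, and the reversible steps between, among them those of Tpi1 and Gapdh, serve both directions.

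The sequence before the liver-type start of Pklr is shown because it holds the glucose response element known from this gene. In the stretch below, read from RefSeq promoters of GRCm38 on the plus strand at chr3:89136373-89136571, the capitals mark CACGGG and CCCGTG, which are inverted copies of each other 5 bases apart, with those 5 bases.
Pklr liver-type start: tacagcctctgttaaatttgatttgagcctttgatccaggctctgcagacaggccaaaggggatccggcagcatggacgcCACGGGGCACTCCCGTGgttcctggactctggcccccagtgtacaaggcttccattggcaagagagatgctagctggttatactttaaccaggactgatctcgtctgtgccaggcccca
The capitals begin 170 bases before the RefSeq start, and the stretch stops where an annotated exon begins. This pattern, CACGGG and CCCGTG with 5 bases of any kind between them, was chosen after the sequence had been seen, and 1 of 32851 windows of 250 bases before a RefSeq start (0.003%) held it, the Pklr window. The table gives 1 value per gene, so this start and the upstream, red-cell-type start of Pklr were not measured apart. The palindrome CACGTG, the core E box, was found in 6.02% of these windows and, of the 12 windows of the 8 genes, in that of Khk, 71 bases before its RefSeq start at 30921559 (chr5:30921478-30921503, plus strand, E box in capitals).
Khk: cgttccccgtCACGTGacaccgttaa
A pair of CACGTG copies 5 bases apart was in 0 windows, TATAAA was in 12.4% of all windows and in windows of Pklr and Pfkfb1, and GGGCGG was in 32.7% and in windows of Khk, Pfkfb1 and Tpi1, each searched on both strands. Both printed stretches lie inside the GENCODE spans given below, which begin upstream of the RefSeq starts used here. These matches are letters in a window and were not tested for binding.

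Depth ranged from 10.8 M to 20.2 M gene-assigned reads per library and did not differ between groups beyond the spread (exact two-sided permutation p = 0.667). Ccnd1, the targeted gene, was at 625 to 867 normalized counts in sgRosa26 and at 325 to 428 in sgCcnd1, and it was the single gene of 12993 tested that passed (limma adjusted p = 0.0116). With each library left out in turn its log2 difference stayed between -1.11 and -0.96, and it missed the limma threshold without B, D, F, H or I (adjusted p from 0.0558 to 0.0857). Library H of sgCcnd1 had almost no Y-linked reads (Ddx3y was at 2.00 normalized counts, while the rest ranged from 809.9 to 1154). Hepatocyte markers summed to 1720953 to 2028178 normalized counts in sgRosa26 and to 1610728 to 2084347 in sgCcnd1, with 0 of 7 at an unadjusted p under 0.05.

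None of the 8 genes passed the test between groups: limma called 0 higher and 0 lower, where it called 0% and 0.00770% of all genes tested. edgeR and DESeq2 on recovered reads also called 0 of the 8, where DESeq2 called 0.342% of genes higher and 0.634% lower. The differences below are on the log2(normalized count + 1) scale, sgCcnd1 minus sgRosa26, with limma's 95% interval for each gene on its own and p-values adjusted over all genes by the Benjamini-Hochberg method. All 8 met the minimum mean of 10 normalized counts. The mean log2 level was higher in sgCcnd1 for 6 genes and lower for 2, where it was higher for 52.9% of all genes tested, the median difference was 0.13 against 0.01 over all genes tested, and in 0 of 8 did the groups fail to overlap, as they did in 3.89% of all genes tested (1.92% with sgCcnd1 above, 1.97% with it below). Pklr and Pfkl were the 2 with an unadjusted p under 0.05, as were 11.0% of all genes tested.

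**Figure D1:**
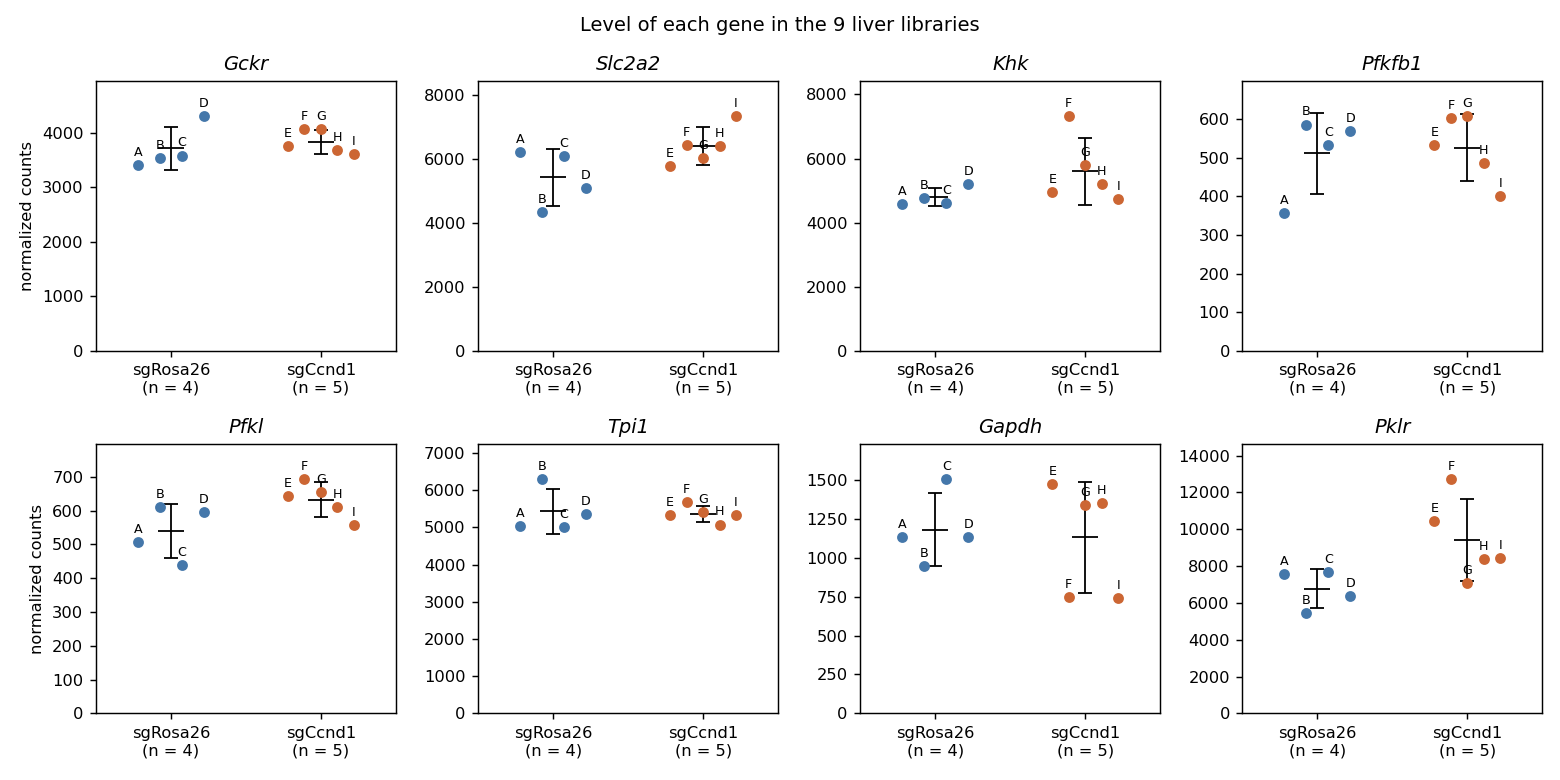
Normalized counts (y axis, from 0) of each gene in the 4 sgRosa26 and 5 sgCcnd1 libraries; points are libraries with their letters, bars the mean and SD. The groups overlap in all 8 panels, and Gapdh spreads widely within sgCcnd1, from 741 to 1474.

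Gckr (Entrez 231103; chr5:31297443-31327314, plus strand, GRCm38) encodes the glucokinase regulatory protein. It was at 3413, 3542, 3579.7 and 4300.3 normalized counts in libraries A to D and at 3756, 4071, 4058, 3680.5 and 3603 in libraries E to I. Library D was the highest of all 9 and the 5 sgCcnd1 libraries lay inside the range of the controls. The mean was 3709 ± 401 in sgRosa26 (SD, n = 4) and 3834 ± 217 in sgCcnd1 (SD, n = 5), a log2 difference of 0.05 with an interval from -0.14 to 0.24 (limma adjusted p = 0.863). After quantile normalization it was -0.034, without library A 0.014 and without library D 0.12.

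Slc2a2 (Entrez 20526; chr3:28697903-28731359, plus strand) encodes GLUT2, the main hexose carrier of the hepatocyte membrane. Its values were 6213, 4334, 6107 and 5103 normalized counts in A to D and 5780.0, 6453, 6038, 6423 and 7347 in E to I. Controls B and D were the lowest libraries, and F, H and I exceeded every control. The log2 difference was 0.25 with an interval from -0.0069 to 0.50 (limma adjusted p = 0.464). Without library B it was 0.14, and without library A it was 0.32.

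Khk (Entrez 16548; chr5:30921431-30931248, plus strand) encodes ketohexokinase, which commits fructose to metabolism. It was at 4579, 4768, 4623 and 5191 normalized counts in A to D and at 4958, 7321, 5783, 5212 and 4726 in E to I. Library F stood above all others and 3 of 5 sgCcnd1 libraries exceeded every control. The log2 difference of 0.21 had an interval from -0.05 to 0.47 (limma adjusted p = 0.540), and without library F it was 0.11. The gene's splice forms, known as ketohexokinase A and C, share 1 row of the table and were not measured apart.

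Pfkfb1 (Entrez 18639; chrX:150588229-150643878, plus strand) encodes the liver form of the bifunctional enzyme that makes and removes the bisphosphate activator of phosphofructokinase. Its values were 357, 586, 533 and 569 normalized counts in A to D and 532, 604, 608, 487 and 402 in E to I. Libraries A and I, 1 in each group, were far below the rest, and the group means were nearly equal at 511 ± 106 (SD, n = 4) and 527 ± 86.4 (SD, n = 5). The log2 difference was 0.05 with an interval from -0.30 to 0.40 (limma adjusted p = 0.931), and it changed sign without library A (-0.11), F (-0.0011) or G (-0.0033).

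Pfkl (Entrez 18641; chr10:77986947-78010083, minus strand) encodes the liver subunit of phosphofructokinase. It was at 508, 611, 440.2 and 596 normalized counts in A to D and at 644, 694, 654, 612 and 558 in E to I. All but library I of the sgCcnd1 group exceeded every control, H by less than 1 normalized count above B. The mean was 539 ± 79.99 (SD, n = 4) in sgRosa26 and 632 ± 50.9 (SD, n = 5) in sgCcnd1. The log2 difference was 0.24 with an interval from 0.0027 to 0.48 (limma unadjusted p = 0.0478, adjusted p = 0.452), and without library C it was 0.15.

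Tpi1 (Entrez 21991; chr6:124810586-124814296, minus strand) encodes triosephosphate isomerase, on which glycolysis and fructose breakdown converge. It was at 5034, 6305, 5021 and 5367 normalized counts in A to D and at 5345, 5679, 5404, 5079 and 5345 in E to I. Library B was the highest, and all 5 sgCcnd1 libraries lay inside the range of the controls. The log2 difference was -0.011 with an interval from -0.20 to 0.18 (limma adjusted p = 0.973). Its sign changed without library B (0.06) or H (0.009).

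Gapdh (Entrez 14433; chr6:125161715-125166467, minus strand) encodes glyceraldehyde phosphate dehydrogenase, which is often used as a reference transcript. Its values were 1131, 948, 1506 and 1130.4 normalized counts in A to D and 1474, 748, 1341, 1349 and 741 in E to I. Libraries F and I were lower than every other library, while E, G and H were near the highest control, C. The log2 difference was -0.10 with an interval from -0.58 to 0.37 (limma adjusted p = 0.897), the widest interval of the 8. The sign changed without library C (0.02), F (0.03) or I (0.03).

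Pklr (Entrez 18770; chr3:89136142-89146784, plus strand) encodes the liver and red cell pyruvate kinase, whose liver-type start is shown above. It was at 7563, 5477, 7689 and 6358 normalized counts in A to D and at 10435, 12738, 7097, 8365 and 8460.1 in E to I. Library G lay inside the control range and the other 4 sgCcnd1 libraries exceeded every control, F most. The mean was 6772 ± 1051 in sgRosa26 (SD, n = 4) and 9419 ± 2206 in sgCcnd1 (SD, n = 5). The log2 difference of 0.46 had an interval from 0.11 to 0.81, a 1.37-fold ratio with an interval from 1.08 to 1.76 (limma unadjusted p = 0.0148, adjusted p = 0.338). Its adjusted p was lowest, 0.194, with DESeq2 on the recovered reads. Without library F the log2 difference was 0.34, and without library B it was 0.36.

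**Figure D2:**
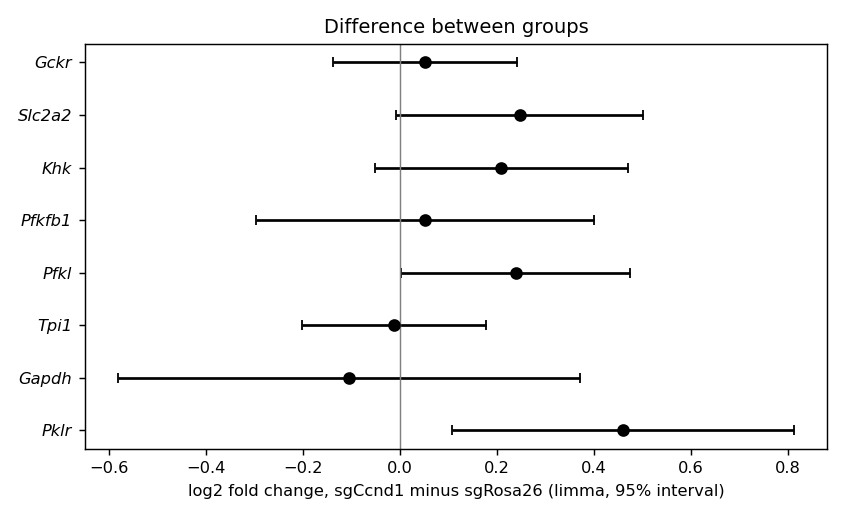
Log2 fold change of each gene (x axis, sgCcnd1 minus sgRosa26), with limma's 95% interval as the bar, unadjusted for the number of genes. The intervals of Pklr and Pfkl lie above 0, and the other 6 include 0.

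Exons of Pklr overlap those of Hcn3, a channel gene on the opposite strand, over 711 bases in the GENCODE annotation, and the use of strand in counting is not given in the sources used here. Without strand, reads from these genes cannot be told apart there. Hcn3 was at 385, 258, 369.8 and 330.2 normalized counts in A to D and at 625, 1015, 291, 508 and 396 in E to I. It was highest in F and E, the same libraries as Pklr, and lowest in B. Its log2 difference was 0.64 with an interval from 0.03 to 1.25 (limma unadjusted p = 0.0421, adjusted p = 0.436). Among the 10411 genes with a mean of 50 or more, Hcn3 was also the one whose pattern over the 9 libraries was most like that of Pklr once group means were removed (Pearson r = 0.95, a description over libraries that share depth and dissection).

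**Figure D3:**
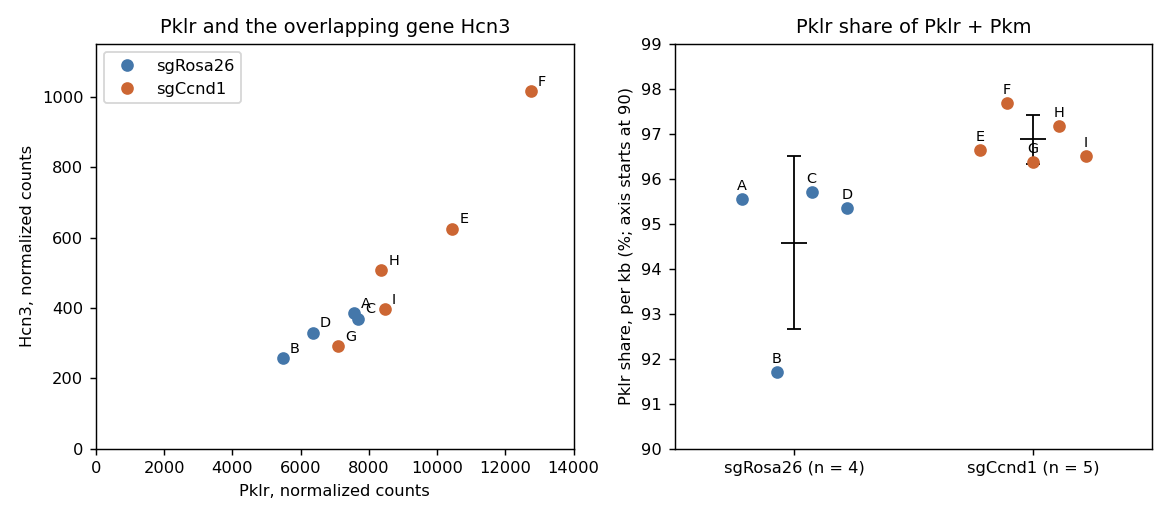
Left, Hcn3 against Pklr in each library (both axes in normalized counts, from 0), colored by group; Hcn3 is highest in F (1015) and lowest in B (258). Right, the share of Pklr in the summed level per kilobase of Pklr and Pkm (percent, axis from 90), with bars for the mean and SD; the sgRosa26 libraries reach 95.7% and the sgCcnd1 libraries start at 96.4%.

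Levels were compared between genes per kilobase of the longest coding transcript. Tpi1 (3359 ± 249 normalized counts per kilobase, SD, n = 9) and Khk (3310.3 ± 548) were highest, and their order held in 6 of 9 libraries. Tpi1 was the higher in the sgRosa26 mean (3380 against 3026) and Khk in the sgCcnd1 mean (3538 against 3342). Pklr followed at 2840.2 ± 755, below Khk in 8 of 9, and Gckr at 1663 ± 131, below Pklr in 9 of 9. Next came Slc2a2 (1073 ± 154), Gapdh (811 ± 205; below Slc2a2 in 8 of 9), Pfkfb1 (278 ± 47.7) and Pfkl (158 ± 21.0). Neighbours other than Tpi1 and Khk, Khk and Pklr, and Slc2a2 and Gapdh kept their order in 9 of 9 libraries. The order also depends on the length used, which is the same in every library. Tpi1 has 1607 bases in its longest coding transcript and 2753 in merged exons, Khk 1583 and 1797, and Gckr 2272 and 4335. With merged exon length Tpi1 falls below Khk and Pklr, and Gckr below Slc2a2. The position of Gapdh is uncertain for a further reason. Of the 50-base windows of its longest coding transcript, 82.5% occur exactly in another annotated gene. This was 23.2% for Pklr, 7.51% for Tpi1, 0.054% for Pfkl and 0% for the other 4. Both strands were searched, so the 711-base overlap of Pklr with Hcn3, a single place in the genome, counts as shared. All 662 shared windows of Pklr lay in 1 gene. The table held 10 rows named as Gapdh pseudogenes, and together they had 3.10% to 7.89% of the Gapdh value of their library. How reads that match several places were counted is not given in the sources used here.

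Relatives of 4 of the genes gave the share of the liver form in its family, per kilobase, which was examined after the values had been seen. Pklr made up 95.6%, 91.7%, 95.7% and 95.3% of Pklr plus Pkm, the other pyruvate kinase gene, in A to D and 96.6%, 97.7%, 96.4%, 97.2% and 96.5% in E to I. All 5 sgCcnd1 libraries were above all 4 controls, and B was the lowest. The mean share rose from 94.6% ± 1.92 (SD, n = 4) to 96.9% ± 0.544 (SD, n = 5), with an exact two-sided permutation p of 0.00794, the smallest these groups allow, and 0.0317 adjusted over the 4 shares. The merged exon length in place of transcript length gave a difference of 1.30, and no length correction 1.96. The difference of 2.30 percentage points was 1.34 without library B. With any library left out the adjusted exact permutation p lay between 0.0714 and 0.114. The groups still did not overlap each time, and the unadjusted p was the smallest that fewer libraries allow. Missing the threshold there thus followed from the number of libraries and shares, and does not show a weaker difference. Pkm itself was lower in sgCcnd1 by 0.33 on the log2 scale (limma unadjusted p = 0.0435, adjusted p = 0.441). Cells other than hepatocytes also express Pkm, and their marker lists are given here. T and NK cell markers summed to 46.7 to 139 normalized counts in sgRosa26 and to 27.0 to 89.96 in sgCcnd1, with all 3 of the 5 markers that were tested lower at an unadjusted p under 0.05, and none of the 5 was at 0 throughout. Of 6 Kupffer cell and macrophage markers, 2 had a higher and 4 a lower mean, with a median log2 difference of -0.06, and 0 passed in limma. Cd68 was the 1 without overlap, at 131.6 to 184 against 74.4 to 121 (limma adjusted p = 0.245; DESeq2 adjusted p = 0.0265, and 0.132 without library H). The 6 summed to 1821 to 2696 in sgRosa26 and to 1799 to 2282 in sgCcnd1. Of the 4 B and plasma cell markers, all had a lower mean, 1 had an unadjusted p under 0.05 and 1 (Mzb1) did not overlap, and they summed to 122 to 380.4 and to 126 to 310.3. Of 6 stellate cell markers 5 had a lower mean (median log2 difference -0.27, 2 at an unadjusted p under 0.05), and they summed to 3425 to 5685 and to 3118 to 4668. Of 5 cholangiocyte markers 3 had a lower mean (median -0.31, 1 at an unadjusted p under 0.05), and they summed to 928 to 1906 and to 749.7 to 1165. Of 5 endothelial markers 3 had a lower mean (median -0.04, 0 at an unadjusted p under 0.05), and they summed to 1686 to 2544 and to 1918 to 2709. The part of these cells, and of the overlap with Hcn3, in the share was not tested.

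The other 3 shares did not pass the test. Pfkl made up 57.6% ± 4.72 (SD, n = 4) and 55.7% ± 2.23 (SD, n = 5) of the 3 phosphofructokinase genes (exact permutation p = 0.389). The difference of -1.91 points rested on single libraries: it was -3.95 without C, where the groups did not overlap (exact permutation p adjusted over the 4 shares = 0.0714), -0.11 without D and -0.97 without I. Pfkfb1 made up 60.9% ± 9.32 and 59.5% ± 4.96 of the 4 Pfkfb genes (exact permutation p = 0.794), a difference of -1.37 points that was -5.86 without library A and 1.02 without library B. Slc2a2 made up 67.9% ± 2.83 and 70.2% ± 1.88 of the 11 sugar carrier genes listed (exact permutation p = 0.183), a difference of 2.32 points that was 0.91 without library B. Slc2a9, a urate and hexose carrier, was the next in that family at 237 ± 30.5 and 248 ± 28.3 normalized counts per kilobase.

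Within groups the genes did not vary alike. Gapdh had a spread of 0.42 (pooled SD of log2 values), larger than that of 95.2% of those 10411 genes. Tpi1, the neighbouring enzyme, had 0.11, larger than 15.1% of them, and Gckr had 0.12, larger than 18.2%. Pklr and Pfkfb1 each had 0.29, larger than 85.4% and 84.9%, Khk 0.20 (60.4%), Slc2a2 0.19 (56.3%) and Pfkl 0.17 (47.0%). Over all 9 libraries, the difference between groups included, the largest value was 2.33 times the smallest for Pklr, 2.03 times for Gapdh and 1.26 times for both Gckr and Tpi1.

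Of the 28 pairs of genes, 12 had deviations from the group mean that were split 5 to 4 between same and opposite sides over the 9 libraries. The 3 most one-sided pairs, picked for that, were Gckr and Khk (same side in 9 of 9), Pfkl and Pfkfb1 (same side in 8 of 9) and Pfkl and Slc2a2 (opposite sides in 8 of 9). Library B illustrates this, with Pfkl 0.19 above and Slc2a2 0.31 below the control mean on the log2 scale. Library F was high in Khk (0.40), Pklr (0.47) and Hcn3 (0.97) and low in Gapdh (-0.53), and library G was low in Pklr (-0.38) while Gapdh was high (0.31).

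How levels depended on transcript length also varied among libraries, from a slope of -0.11 log2 units per doubling of length in B to 0.11 in A, over 10099 genes. These slopes did not differ between groups beyond the spread (exact two-sided permutation p = 0.754). Several of the 8 genes moved with the slope within groups. As a description over the same 9 libraries, Pearson r with the slope was -0.78 for Pfkl and for Pfkfb1, -0.72 for Tpi1 and for Khk, and -0.62 for Gckr. It was 0.67 for Slc2a2, 0.36 for Gapdh and 0.07 for Pklr. The part of this trend in the values of these genes, and in the pairs above, was not tested.

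**Figure D4:**
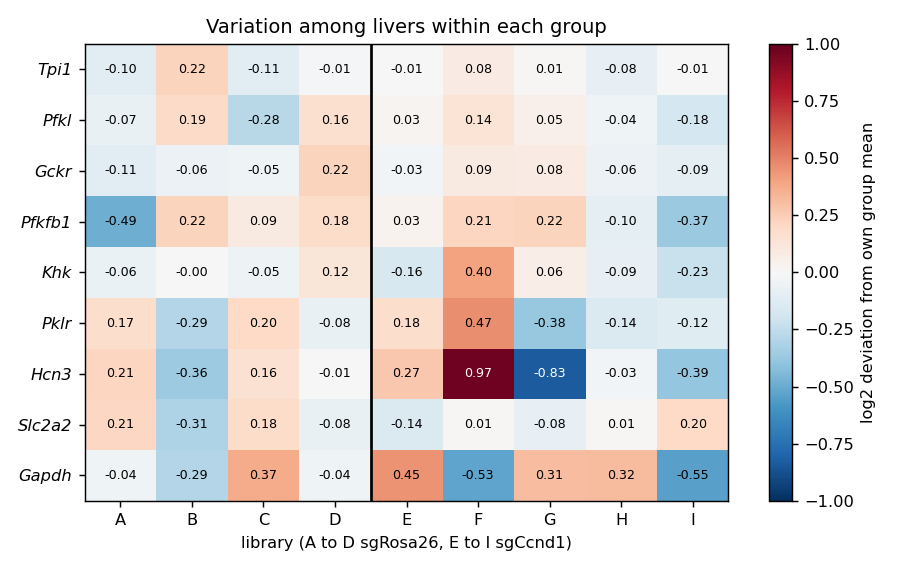
Log2 deviation of each library from the mean of its own group (color and printed value) for the 8 genes and Hcn3; columns are libraries, with a line between sgRosa26 and sgCcnd1. Pklr and Hcn3 share their high library F and low libraries B and G, and Gapdh is low in F and I.

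The genes whose patterns were most like the others, by the same measure over 9 libraries with group means removed, were Gstk1 for Gckr (Pearson r = 0.96), Cse1l for Slc2a2 (0.97) and Anapc7 for Khk (0.97). They were Tsg101 for Pfkfb1 (Pearson r = 0.97), Fance for Pfkl (0.98), Ifitm1 for Tpi1 (0.93) and Slc33a1 for Gapdh (0.97). Each was the highest of the 10411 genes searched, so a high value is given by the search itself.

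The surrounding pathways were described with 7 lists, 85 genes in the table of which 78 were tested, and 0 passed in limma. Groups did not overlap in 6 of the 78, all higher in sgCcnd1, which is 7.69% against 3.89% of all genes tested. At an unadjusted p under 0.05, 13 were higher and 2 lower, where 5.22% and 5.74% of all genes tested were. DESeq2 on the recovered reads called 2, Pfkm and Pcx, where it called 0.976% of the genes with a defined adjusted p. Without library H it called 0 of the 78.

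Among the other glycolytic enzymes, 0 of 22 tested genes passed, with a median log2 difference of 0.01. Pfkm, the muscle subunit of phosphofructokinase, was at 243 to 288 normalized counts in sgRosa26 and at 316 to 356 in sgCcnd1, above all controls in 5 of 5 libraries. Its log2 difference was 0.38, with an interval from 0.19 to 0.57 (limma adjusted p = 0.245; DESeq2 adjusted p = 0.0465, and 0.174 without library H). Pgam1, the phosphoglycerate mutase, was at 598 to 705 and 774 to 832, and Eno1, the main enolase, at 5283 to 7058 and 7429 to 8489, both also without overlap (limma adjusted p = 0.296 and 0.372). Pgk1, phosphoglycerate kinase, differed by 0.27 (limma adjusted p = 0.334). Hk2 (-0.60) and Pkm (-0.33) were the 2 lower genes at an unadjusted p under 0.05, named after their values were seen (limma adjusted p = 0.390 and 0.441). Hkdc1, Pgam2 and Eno2 were below the minimum level.

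No sugar carrier, fructose or polyol gene passed, 0 of 6 and 0 of 7 tested. Tkfc, the triokinase that follows ketohexokinase and aldolase in fructose breakdown, was at 5001 to 7092 normalized counts in sgRosa26 and at 6073 to 8878 in sgCcnd1 (log2 difference 0.26, limma adjusted p = 0.472). It was highest in F, the library with the highest Khk. The fructose carrier gene Slc2a5 was also highest in F, at 251 against 91.3 to 169 in the controls (limma adjusted p = 0.580). Slc2a4 differed by 0.48 and Slc2a8 by 0.09 (limma adjusted p = 0.710 and 0.731), Akr1b3, aldose reductase, by -0.29 (0.512) and Aldh1b1 by -0.15 (0.688).

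Of the glucose-responsive regulators, 0 of 14 passed, with a median difference of -0.03. Txnip, a sugar-induced gene, differed by 0.42 and Arrdc4, its relative, by -0.36, in opposite directions (limma adjusted p = 0.454 and 0.572). Hif1a differed by 0.17 (limma adjusted p = 0.566). Mlxipl, the gene of ChREBP, was at 9826 to 11622 normalized counts in sgRosa26 and at 8974 to 10963 in sgCcnd1 (limma adjusted p = 0.771), and is named here because the Pklr element shown above is known as its target.

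The opposing enzymes of glucose production had a higher mean in 6 of 6 genes, with a median of 0.26, and 0 passed in limma, where 52.9% of all genes tested had a higher mean. Fbp1, fructose bisphosphatase, which runs against phosphofructokinase, was at 9112 to 12541 normalized counts in sgRosa26 and at 12726 to 14911 in sgCcnd1 (log2 difference 0.27, limma adjusted p = 0.384). Pcx, pyruvate carboxylase, was at 6634 to 7568 and 8450.5 to 9170, again without overlap (0.27, limma adjusted p = 0.282; DESeq2 adjusted p = 0.0226, and 0.10 without library H). Slc37a4, which carries phosphorylated glucose into the endoplasmic reticulum, differed by 0.31 (limma adjusted p = 0.338). The 7 periportal markers, of which Pck1 is also in this list, had a higher mean in 7 of 7, 2 of them at an unadjusted p under 0.05, and summed to 78896 to 110121 normalized counts in sgRosa26 and to 86794 to 129808 in sgCcnd1. DESeq2 called 1 of the 7 higher, Sds, which had a limma log2 difference of 0.52 (limma adjusted p = 0.253; DESeq2 adjusted p = 0.0394, and 0.173 without library H). Of 8 pericentral markers 6 had a lower mean, 1 at an unadjusted p under 0.05. The part of liver zones in these values was not tested.

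In the pentose phosphate list, 0 of 8 passed, and 7 had a higher and 1 a lower mean, where 52.9% of all genes tested had a higher mean. The 8 summed to 12711 to 14231 normalized counts in sgRosa26 and to 14525 to 17146 in sgCcnd1. Tkt, transketolase, differed by 0.21, G6pdx, the entry enzyme, by 0.45 and Rpe by 0.11 (limma adjusted p = 0.452, 0.516 and 0.657). G6pdx was highest in E and F, at 431 and 363 normalized counts, the libraries with the highest Pklr. In the glycogen list, 0 of 15 passed, and 11 had a higher and 4 a lower mean. At an unadjusted p under 0.05 in limma, 4 were higher and 0 lower, where 5.22% and 5.74% of all genes tested were. Gbe1, the branching enzyme, was at 2019 to 2806 in sgRosa26 and at 2846 to 3279 in sgCcnd1, without overlap (0.35, limma adjusted p = 0.259). Pygl, liver glycogen phosphorylase, differed by 0.34 (limma adjusted p = 0.296). Ppp1r3g, a glycogen-targeting phosphatase subunit, had the largest difference of the 78 genes, 1.77, from 9.84 to 30.7 normalized counts in sgRosa26 to 26.7 to 183 in sgCcnd1 (limma adjusted p = 0.270).

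**Figure D5:**
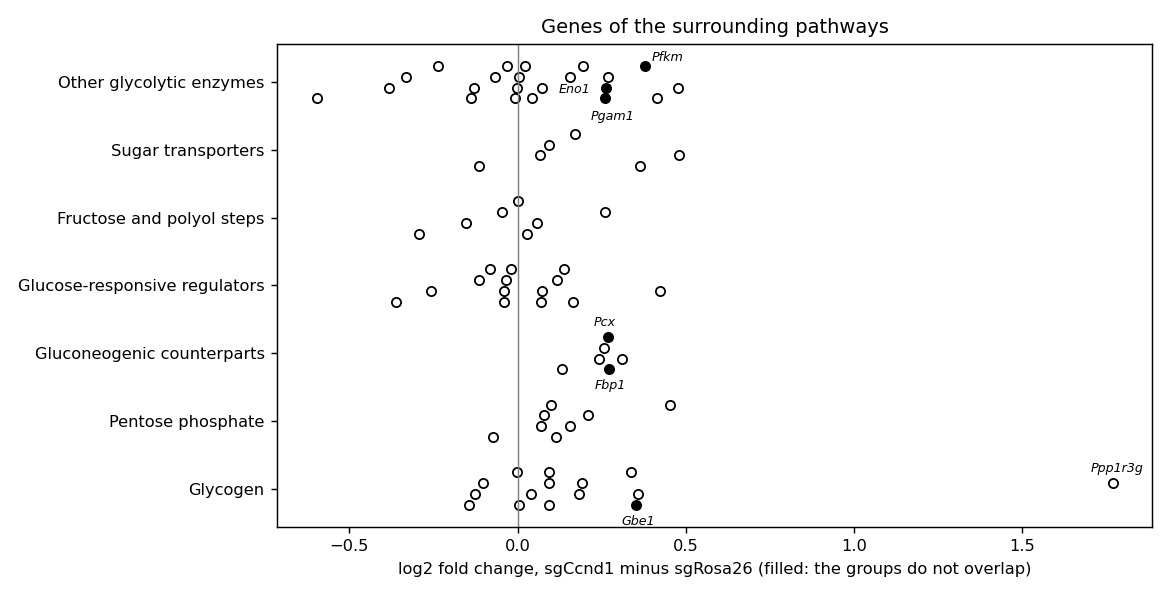
Log2 fold change (x axis, sgCcnd1 minus sgRosa26) of the 78 tested genes of the 7 lists, 1 point per gene; filled points are the 6 genes whose groups do not overlap, all with values above 0. Vertical offsets within a list carry no meaning.

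Of 11 clock genes tested, 0 passed in limma, and 7 had a higher and 4 a lower mean in sgCcnd1. At an unadjusted p under 0.05, 4 were higher and 2 lower, where 5.22% and 5.74% of all genes tested were. Dbp was at 99.05 to 348 normalized counts in sgRosa26 and at 179 to 541 in sgCcnd1, and Npas2 at 83.6 to 178 and 28.4 to 72.4, without overlap (limma adjusted p = 0.225; DESeq2 adjusted p = 0.0034, and 0.0129 without library H). The 11 genes summed to 5186 to 7623 and to 6495 to 8832. Of 8 fasting-induced genes, 1 was higher at an unadjusted p under 0.05, and they summed to 33904 to 50803 and to 35515 to 51826. Of 4 red cell genes, 0 had an unadjusted p under 0.05. The part of harvest time or feeding in the values of Pklr and the other genes was not tested.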

How the data were processed

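Per the submitters' processing notes, the tools were Trim Galore 0.6.7, HISAT2 2.2.1, featureCounts 2.0.3, FastQC 0.74, MultiQC and DESeq2 2.11.40.8, with the builds mm10 and GRCm38; annotation and strand setting are not given in the sources used here. The authors deposited a never-negative signal, called normalized counts, for 27179 genes. Within 0.05 reads, 100% of values above 0 were whole multiples of 1 number per library, so reads could be recovered; for library H that number was too near 1 for an independent check. From the deposited signal, log2(value + 1) was tested with limma 3.58.1 (R 4.3.3; eBayes with intensity trend, two-sided) for 12993 genes with a mean of at least 10, adjusted by Benjamini-Hochberg, threshold 0.05. Alternatives were pseudocounts of 0.1 and 10, no filter, a minimum mean of 100, quantile and 75th percentile scaling, robust eBayes, array weights, each library left out, and edgeR 4.0.16 and DESeq2 1.42.0 on recovered reads. Procedures were tested on simulated data. Lengths, overlaps and coordinates came from GENCODE vM21 and promoters from RefSeq, both GRCm38. The sample titles name a mouse and a replicate number each, and p-values measure the spread between these samples.

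The genes and lists were chosen with earlier results of these data known. From each list, genes past the threshold were named, or else the 3 with the smallest p, and those whose groups do not overlap. Marker lists also held pericentral, periportal, endothelial, stellate, cholangiocyte, B and plasma, and red cell genes. Intervals from depth were not used. Figures were drawn with matplotlib 3.10.9.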

Additional observations from a re-analysis of the deposited data

Results flagged for a closer look

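Of 62 groups of values examined for a library far from the rest of its group, 5 had one, where chance gives about 3.1 (1 in 20). Among the controls, library A was low in Eno1 (5283 normalized counts) and in Pgam1 (598) and high in Slc2a4 (50.4), and library D was low in Txnip (599). In sgCcnd1, library G was low in Aldh1b1 (733). None of the 8 genes nor Hcn3 had such a library.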

How the results depend on the processing

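No paired analysis was possible because replicate numbers are missing from the table's column names. Under 22 alternatives, 0 of the 8 genes passed in any, and Pklr, Pfkl, Khk and Slc2a2 kept their direction in all 22, with adjusted p from 0.194 to 0.629 for Pklr. Leaving out a library gave log2 differences from 0.34 to 0.55 for Pklr, from 0.014 to 0.12 for Gckr, from -0.11 to 0.15 for Pfkfb1, from -0.047 to 0.063 for Tpi1 and from -0.22 to 0.033 for Gapdh. Quantile normalization turned Gckr to -0.034, and Tpi1 relative to Gapdh was at 0.093. Genes called lower numbered 1 in limma, 2 after quantile normalization, 0 to 2 with a library left out (Ccnd1 itself missed the threshold in 5 of 9 such fits), and 76 in DESeq2. Without library H, DESeq2 called 25 lower and edgeR 0. Genes called higher numbered 0 in limma, 41 in DESeq2 and, without library H, 16 in DESeq2. DESeq2 called 1 gene higher in the glycolytic and 1 in the gluconeogenic list, and 0 in both without library H. The share of Pklr differed by 1.34 to 2.68 percentage points with a library left out, with fewer splits and so a larger smallest p, the share of Pfkfb1 by -5.86 to 1.02, that of Pfkl by -3.95 to -0.11 and that of Slc2a2 by 0.91 to 2.90. The cause of the other changes was not tested. Pairing by replicate number was not run. Count models without H, ratios to Gapdh or Tpi1 and the shares were added after the data were seen.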

Other observations

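Gapdh is often the denominator when a liver transcript is given as a ratio, and the ratio was therefore computed for the other 7 genes, as a choice made after the data were seen. Relative to Gapdh, the log2 difference of Pklr was 0.56 with a spread within groups of 0.54 (exact permutation p = 0.198, 0.578 adjusted over 14 ratios). Relative to Tpi1 it was 0.47 with a spread of 0.34 (exact permutation p = 0.0794, 0.556 adjusted). For Pfkl the spread within groups was 0.49 relative to Gapdh and 0.12 relative to Tpi1, with log2 differences of 0.34 (exact permutation p = 0.341) and 0.25 (exact permutation p = 0.0238, 0.333 adjusted). Of the 14 ratios, the smallest adjusted p was that of Pfkl to Tpi1.

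The level of Gapdh per kilobase was 811 ± 205 normalized counts (SD, n = 9), below that of Tpi1 at 3359 ± 249. Exact 50-base matches in other annotated genes cover 82.5% of the windows of its longest coding transcript and lie in 222 genes. The relation of these matches to its level or to its spread was not tested.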
